A study of Mus musculus with 6 samples.

Results

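A set of 10 genes of extracellular nucleotide breakdown and adenosine handling was followed in mouse hepatocytes, the parenchymal cells of the liver. They were *Nt5e*, *Entpd2*, *Entpd5*, *Entpd8*, *Enpp1*, *Enpp2*, *Ada*, *Adk*, *Adora1* and *Slc29a1*, taken by symbol among the 55487 gene rows of each library. The list was selected on earlier values of the same data, the levels per library and the differences of C75S against WT, so the differences between genotypes for these 10 genes are given as a description, without a test of their own.

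The hepatocytes came from mice 6 to 8 weeks old of which some were homozygous for the AEG-1-C75S allele and some were wild type (WT), all born to matings of heterozygotes. AEG-1 is an endoplasmic reticulum membrane protein encoded by *Mtdh*, and the C75S allele puts a serine in place of the cysteine that carries its palmitoyl group. The allele is a germline change, so every cell type of the animal carries it. All samples carried the treatment label Control, and RNA was taken 48 h after isolation of the cells. There were 3 libraries of each genotype, and nothing states that they came from separate mice, so all errors measure the spread between libraries, which may be technical.

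Cells release ATP into their surroundings, where enzymes on the outer face of the membrane remove its phosphates in steps. NTPDases (the *Entpd* genes) cut ATP and ADP, and pyrophosphatases of the *Enpp* family cut ATP directly to AMP and pyrophosphate. The ecto-5'-nucleotidase CD73, encoded by *Nt5e*, converts the AMP to adenosine, which acts on G protein-coupled adenosine receptors until it is taken up by nucleoside transporters and phosphorylated by adenosine kinase or deaminated by adenosine deaminase. The hepatocyte faces this chemistry at both its sinusoidal and its bile canalicular surface.

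*Nt5e* and *Adora1*, the genes for the enzyme that makes extracellular adenosine and for the A1 receptor that senses it, were the members that were lower in C75S past the threshold of the fit across all genes. Sequence upstream of their RefSeq starts is shown because these 2 genes moved in the same direction. For *Nt5e* the stretch is chr9:88327572-88327601 (GRCm38.p6, plus strand). It was placed to end shortly after the last GC box near the RefSeq start, so it holds GC boxes by choice. The region just upstream of that start, this stretch included, lies inside the first exon that GENCODE M21 annotates. The stretch is therefore limited to 30 bases. For *Adora1* it is the 250 bases before the outermost RefSeq start, chr1:134235458-134235707 (GRCm38.p6, minus strand), which holds no annotated exon of that strand. Capitals mark the GC box GGGCGG and, in *Adora1*, the core ACGTG of the hypoxia response element, on either strand.
*Nt5e*: ggcgggtctgtccCCGCCCCGCCCtcctct
*Adora1*: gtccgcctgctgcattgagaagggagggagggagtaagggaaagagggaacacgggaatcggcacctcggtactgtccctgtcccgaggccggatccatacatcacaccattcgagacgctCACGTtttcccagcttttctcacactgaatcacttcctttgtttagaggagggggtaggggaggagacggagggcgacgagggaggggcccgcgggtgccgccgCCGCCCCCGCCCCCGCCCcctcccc

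Both stretches are rich in G and C, but the *Nt5e* stretch was placed at GC boxes. The whole window of 300 bases around the start was 71.0% G and C for *Nt5e* and 66.0% for each of the 2 *Adora1* starts, against a median of 52.7% over 32851 RefSeq windows. The GC box occurred 4 times in the *Nt5e* window and up to 3 times in an *Adora1* window. It occurred up to 4 times in an *Adk* window, up to 5 times in a *Slc29a1* window and 0 times in the *Entpd8* window. A gene can have several windows (8 for *Slc29a1*), and a motif was counted for a gene if any window held it. The share in parentheses is that over all 27025 genes counted in the same way, followed by the share of single windows. At least 1 GC box was found for 8 of the 9 members with a window (38.2% of genes, 35.7% of windows). The core ACGTG was found for 5 members (21.8%, 19.6%), *Adora1* among them and *Nt5e* not. The partial site TGACG of the cAMP response element, which can overlap ACGTG in the letters TGACGTG, was found for 4 members (23.0%, 20.8%). The full element TGACGTCA was found for 0 (2.03%, 1.79%), the AP-1 site TGANTCA for 3 (8.97%, 7.81%), the TATA box TATAAA for 0 (15.7%, 13.6%) and the CCAAT box for 3 (41.1%, 37.4%). These are matches of letters in a window and say nothing of binding. *Enpp2* is not among the sequences used here.

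Read counts on genes ranged from 16944723 in C75S replicate 1 to 21044292 in C75S replicate 2. Levels are given as CPM, counts per 1000000 on library sizes scaled by TMM, and 3 counts corresponded to 0.142 to 0.172 CPM. All 8 hepatocyte markers examined were detected, and albumin (*Alb*) averaged 60610 CPM (SD 5471, n = 3) in C75S and 67140 CPM (SD 3618, n = 3) in WT. Of the 8, 4 had a positive and 4 a negative log2 difference of C75S against WT. Past the threshold of the fit across all genes was 1, against 3.11% of all tested genes. It was *Cyp2e1*, higher in every C75S library (log2 fold change 0.31, SE 0.06, edgeR adjusted p = 0.00908), and *Alb* did not pass. Markers of lymphocytes summed to at most 0.474 CPM in any library.

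All 10 members passed the filter on low counts. When levels were divided by exon length, *Adk* was the most abundant, at 65.6 ± 4.87 reads per kilobase of exon per 1000000 counts (mean ± SD over all 6 libraries). It stood above 95.5% of the tested genes. *Entpd5* followed at 29.01 ± 1.73, then *Slc29a1* at 9.995 ± 0.543, *Nt5e* at 7.30 ± 1.78 and *Entpd8* at 6.82 ± 0.618. *Adora1* was at 4.22 ± 0.920, *Enpp2* at 3.22 ± 0.346, *Entpd2* at 1.88 ± 0.462, *Enpp1* at 1.45 ± 0.136 and *Ada* at 0.545 ± 0.163. *Adk* encodes the kinase that returns adenosine to AMP and *Ada* the deaminase that converts it to inosine.

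Not every step in that order was clear of the spread. *Slc29a1* and *Nt5e*, *Nt5e* and *Entpd8*, *Adora1* and *Enpp2*, and *Entpd2* and *Enpp1* had overlapping ranges over the 6 libraries. The order of *Nt5e* and *Entpd8* went with genotype: *Nt5e* was the higher of the pair in all 3 WT libraries and the lower in all 3 C75S libraries. The other 5 neighbouring pairs did not overlap. Exon length counts every annotated exon base of a gene, whichever transcript holds it. For *Adk* it was 8526 bases, against 4243 in the longest transcript, and for *Adora1* 5785 against 4968. An order by transcript length was not examined.

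**Figure D1:**
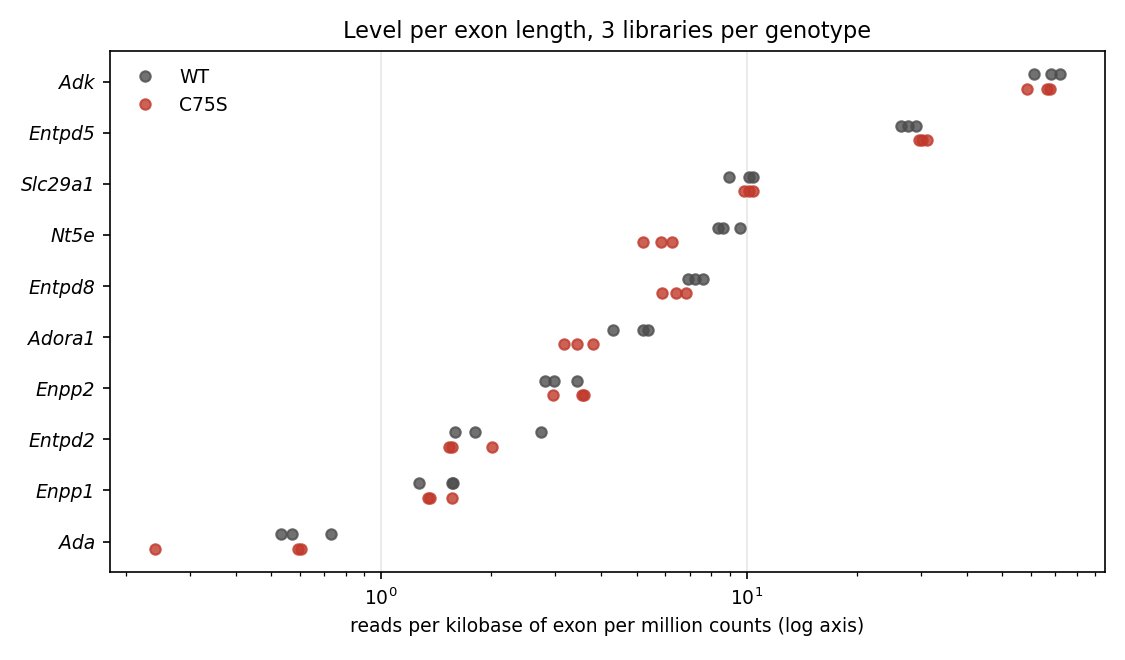
Level of each of the 10 genes per exon length in each library (horizontal log axis, reads per kilobase of exon per 1000000 counts), with WT in grey and C75S in red, 3 points each. *Adk* lies highest at a mean of 65.6 and *Ada* lowest at 0.545. The points of *Nt5e* and *Adora1* separate by genotype, as do, narrowly, those of *Entpd5* and *Entpd8*.

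In the fit of C75S against WT across 12741 genes, 2 of the 10 members had a Benjamini-Hochberg adjusted p under 0.05 in edgeR's quasi-likelihood test, both lower in C75S. Over all tested genes 3.11% were called, 1.74% higher and 1.37% lower. The genotypes' libraries did not overlap for 4 members, against 18% of all tested genes, 1 higher in C75S (9.02% of all genes) and 3 lower (8.96%). Because the same contrast was in view when the members were listed, nothing is read from these counts. The median log2 fold change was -0.12 over the 10 members and -0.0030 over all tested genes. Each of the 14 alternative fits called *Nt5e* and *Adora1* and no other member. These fits use the same libraries that the list was selected on, so they are not independent support.

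The genes that make adenosine are led by *Nt5e* (ENSMUSG00000032420, chromosome 9, 88327197 to 88372092, plus strand, protein coding in GENCODE M21, GRCm38). It encodes a GPI-anchored enzyme of the cell surface. The WT libraries were at 82.5, 74.0 and 71.8 CPM in replicates 1 to 3 and the C75S libraries at 50.1, 53.6 and 44.7 CPM. The lowest WT library lay well above the highest C75S library, so the genotypes did not overlap, and WT replicate 1 was the highest of the 6. Its mean was 76.1 ± 5.65 CPM for WT and 49.5 ± 4.52 CPM for C75S (SD over 3 libraries). *Nt5e* thus fell by 0.62 on the log2 scale (SE 0.07), a change of -34.9%. Without WT replicate 1 the log2 fold change was -0.56, and with any 1 library omitted it lay between -0.68 and -0.55. In bulk RNA, fewer cells expressing a gene and less RNA per cell cannot be told apart.

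Of the *Entpd* and *Enpp* members, 0 of 5 passed the threshold, against 3.11% of all tested genes, and nothing is read from this count. *Entpd5* (chromosome 12, 84373857 to 84409029) encodes an enzyme of the endoplasmic reticulum that cuts UDP and GDP and is tied to glycoprotein folding. Its libraries were at 159.6, 167 and 175 CPM in WT and 183, 188 and 178.5 CPM in C75S. All C75S values lay above all WT values, with a log2 difference of 0.13 (SE 0.05), and it was not called in the fit across all genes.

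*Entpd8* (chromosome 2, 25080304 to 25085716) encodes the NTPDase of the bile canalicular membrane. It was at 20.7, 19.6 and 18.8 CPM in WT and 15.9, 18.55 and 17.4 CPM in C75S. The genotypes did not overlap, but WT replicate 3 and C75S replicate 2 lay close together, and the log2 difference of -0.19 had a 95% interval from -0.38 to 0.0079. *Entpd2* (chromosome 2, 25395874 to 25401321), whose enzyme prefers ATP to ADP, was at 5.84, 3.85 and 3.40 CPM in WT and 3.27, 3.32 and 4.28 CPM in C75S. Only WT replicate 1 stood apart, and without it the log2 difference of -0.27 (95% interval -0.71 to 0.17) became 0.0013. *Entpd2* also shares 612 of its 2128 exon bases with *Npdc1* on the same strand, where reads could be assigned to neither gene.

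*Enpp1* (chromosome 10, 24637914 to 24712159), which releases pyrophosphate from ATP, was at 13.1, 16.2 and 16.1 CPM in WT and 13.95, 16.0 and 13.8 CPM in C75S. The genotypes overlapped, with a log2 difference of -0.045 and a 95% interval from -0.27 to 0.18. *Enpp2* (chromosome 15, 54838901 to 54952892) encodes autotaxin, a secreted member of the family that makes lysophosphatidic acid. It was at 17.2, 16.2 and 19.9 CPM in WT and 17.1, 20.8 and 20.5 CPM in C75S, again overlapping, with a log2 difference of 0.14 and a 95% interval from -0.075 to 0.35.

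**Figure D2:**
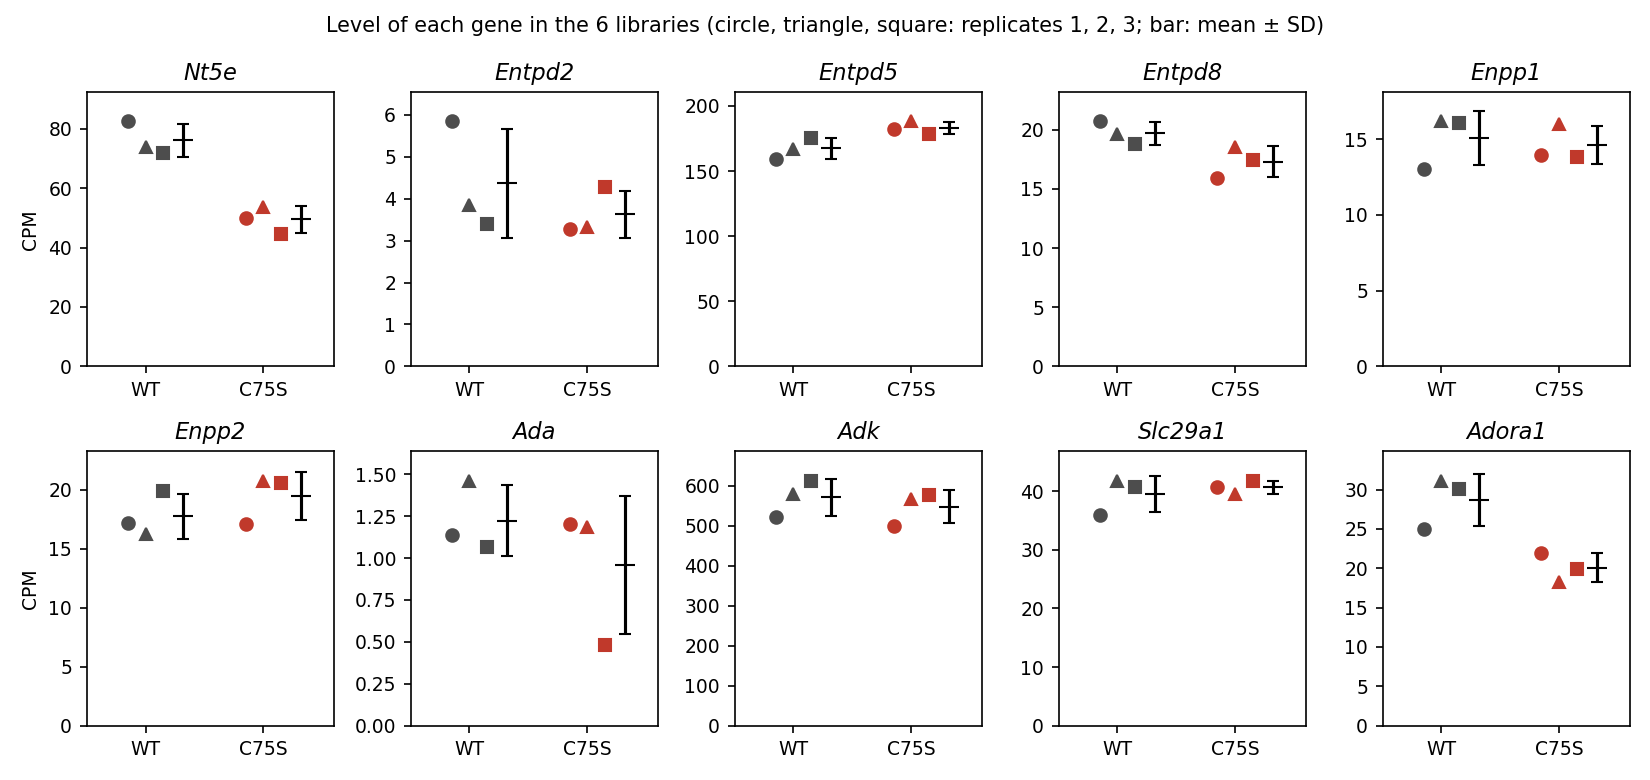
CPM of each of the 10 genes in each library (vertical axes start at 0 and differ between panels), with WT in grey, C75S in red, replicates 1 to 3 as circle, triangle and square, and the mean ± SD as a black bar. All 3 C75S values of *Nt5e*, of *Adora1* and of *Entpd8* lie below all 3 WT values, and those of *Entpd5* lie above them. The genotypes overlap for *Adk*, *Slc29a1*, *Enpp1*, *Enpp2*, *Entpd2* and *Ada*.

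*Adora1* (ENSMUSG00000042429, chromosome 1, 134199223 to 134235431, minus strand, protein coding) encodes the A1 adenosine receptor, which couples to the inhibitory G protein of adenylate cyclase. The WT libraries were at 24.97, 31.1 and 30.1 CPM and the C75S libraries at 21.99, 18.3 and 19.85 CPM. WT replicate 1 was the WT library closest to C75S, and the genotypes did not overlap. The WT mean of 28.7 ± 3.30 CPM and the C75S mean of 20.05 ± 1.85 CPM (SD over 3 libraries) correspond to a fall by 0.52 on the log2 scale (SE 0.10), a change of -30.3%. Leaving out 1 library gave values from -0.61 to -0.46. The libraries at the extremes were not the same as for *Nt5e*: WT replicate 1 was the highest WT library for *Nt5e* and the lowest for *Adora1*. *Adora1* shares 1162 exon bases with *Mybph* on the opposite strand, and 1 read in all 6 libraries was assigned to *Adora1* from the opposite strand.

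The libraries of the genotypes overlapped for all 3 genes that take up or remove adenosine. Overlap was the common case, since the libraries did not overlap for only 18% of all tested genes. *Slc29a1* (chromosome 17, 45585200 to 45599606), the equilibrative nucleoside transporter ENT1, was at 35.9, 41.8 and 40.7 CPM in WT and 40.8, 39.5 and 41.7 CPM in C75S. Its log2 difference was 0.042 with a 95% interval from -0.10 to 0.19. *Adk* (chromosome 14, 21052574 to 21448569) was at 521, 580.0 and 612 CPM in WT and 499, 567 and 575 CPM in C75S. Replicate 1 was the lowest library of either genotype, and the log2 difference was -0.062 with a 95% interval from -0.19 to 0.068. Both intervals include 0, and the -0.62 of *Nt5e* lies outside them. They measure the spread between libraries, and a change between animals was not tested.

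*Ada* (chromosome 2, 163726584 to 163750239) had the fewest reads of the 10 genes, with 24, 30 and 22 reads in WT and 21, 25 and 9 in C75S. C75S replicate 3 was the low library, and without it the log2 difference of -0.35 became -0.032. Its 95% interval ran from -1.13 to 0.43, which includes both 0 and the -0.62 of *Nt5e*.

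**Figure D3:**
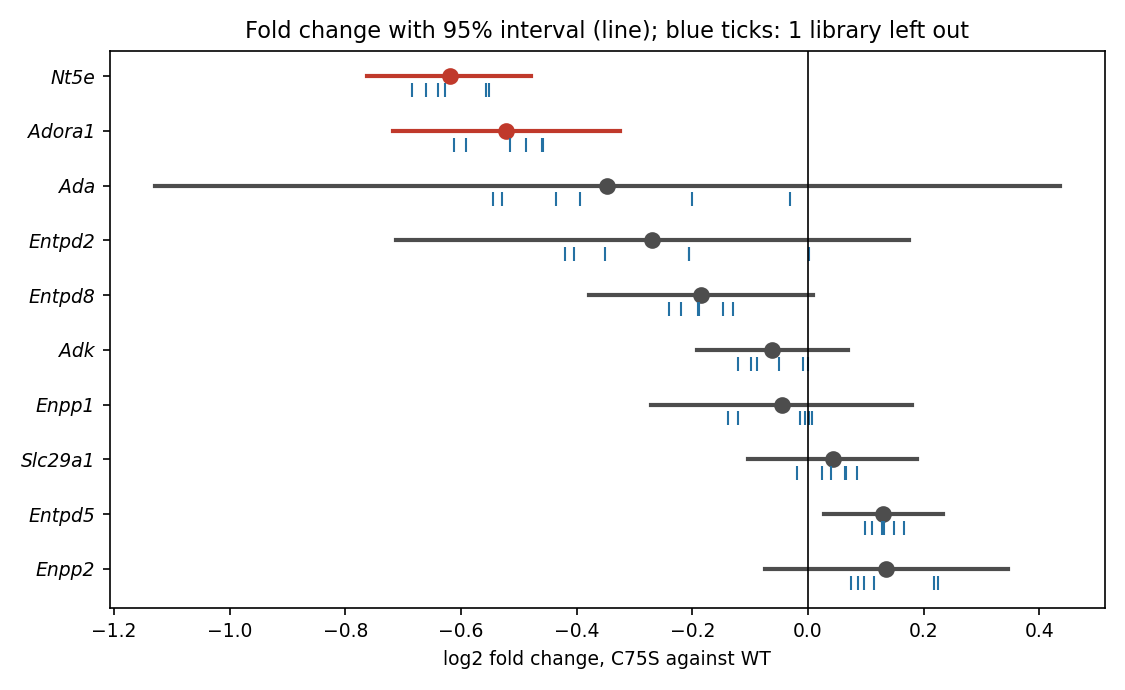
Log2 fold change of C75S against WT for each of the 10 genes (point) with its 95% interval (line), red where the adjusted p in the fit across all genes was under 0.05, and blue ticks for the 6 fits without 1 library. *Nt5e* at -0.62 and *Adora1* at -0.52 lie left of 0 in all of these fits. So do *Entpd8* and *Ada*, which were not called, and *Entpd5* and *Enpp2* lie right of 0 in all of them. The interval of *Ada* is the widest.

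Markers of other cells were summed to place these values. Cholangiocyte markers, of which 8 of 9 had reads and *Cftr* was at 0, summed to 182 to 238 CPM in C75S and 161.5 to 169 CPM in WT. The sum was higher in every C75S library, but most of it was *Spp1* (means of 131.5 CPM in C75S and 91.0 CPM in WT). Within that list *Krt19* was called higher (log2 fold change 0.80), *Spp1* was higher in every C75S library without being called (0.53), and *Sox9* (-0.058) overlapped. *Epcam*, too low to test, went the other way, at 0 to 0.107 CPM in C75S and 0.146 to 0.570 CPM in WT. Stellate cell markers (9 of 9 with reads) summed to 57.4 to 73.6 CPM in C75S and 71.5 to 93.1 CPM in WT, most of it *Reln* (means of 58.7 and 75.2 CPM, overlapping and not called). *Acta2*, also in that list, went the other way and was called higher, with means of 4.65 CPM in the C75S and 2.62 CPM in the WT libraries (log2 fold change 0.82, SE 0.21, edgeR adjusted p = 0.0256). Endothelial markers (8 of 8) summed to 33.2 to 43.2 CPM in C75S and 31.3 to 42.0 CPM in WT, most of it *Stab2* (log2 difference -0.086). Of the 6 endothelial markers tested, 0 were called and 2 had an unadjusted p under 0.05 (edgeR), 5 were positive with a list median of 0.55, and *Pecam1* (0.70), *Lyve1* (0.85) and *Kdr* (0.69) were higher in every C75S library. Kupffer cell and macrophage markers (9 of 9 with reads) summed to 96.6 to 140.5 CPM in C75S and 104 to 135 CPM in WT, nearly all *Cd68*. Among the others of that list *Marco* was at 0.285 to 0.345 CPM in C75S and 0 to 0.0970 CPM in WT, and *Clec4f* had reads in WT replicate 1 alone (4 reads). Portal fibroblast markers (6 of 8, *Eln* and *Mgp* at 0) summed to 7.97 to 8.61 CPM in C75S and 6.79 to 8.58 CPM in WT. The part of these cells in the *Nt5e* and *Adora1* values was not tested.

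The rest of the purine pathway was examined in 91 genes listed by role, of which 78 had reads and 60 could be tested. Of the 60, 3 were higher and 2 lower in C75S (adjusted p under 0.05, edgeR quasi-likelihood test), 8.33% against 3.11% of all genes. Their median log2 fold change was 0.025, against -0.0030 over all tested genes. The lists were chosen with earlier results of these data known, so nothing is read from these shares. Without 1 library the count of 5 was 1 (without C75S replicate 1), 3 (C75S replicate 2), 4 (C75S replicate 3), 2 (WT replicate 1), 2 (WT replicate 2) or 1 (WT replicate 3), so the calls below depended on which libraries were used.

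Among 9 testable genes of extracellular nucleotide hydrolysis, 1 was lower and 0 were higher. The lower gene was *Alpl*, tissue-nonspecific alkaline phosphatase, a GPI-anchored enzyme that, like CD73, can take the phosphate from AMP. The WT libraries were at 16.2, 19.3 and 18.3 CPM and the C75S libraries at 11.6, 14.1 and 13.1 CPM, with no overlap. It fell by 0.47 on the log2 scale (SE 0.11, edgeR adjusted p = 0.0126, 3 of 3 libraries lower), a call lost without C75S replicate 1, WT replicate 2 or WT replicate 3 (adjusted p = 0.0819, 0.0921 and 0.0523). The most abundant genes of this list per exon length, *Cant1* and *Enpp5*, had log2 differences of -0.089 (SE 0.07) and -0.035 (SE 0.07).

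Of 12 testable genes of intracellular AMP and adenosine metabolism, 1 fell and 2 rose. *Nt5c2*, the cytosolic nucleotidase that prefers IMP and GMP, was at 112, 118 and 121 CPM in WT and 91.7, 104 and 99.7 CPM in C75S, a fall of 0.25 on the log2 scale (SE 0.06, edgeR adjusted p = 0.0107). *Nt5c3b*, a nucleotidase for methylated guanosine monophosphate, rose from 10.4 ± 1.68 to 15.2 ± 2.23 CPM (SD, n = 3 each; log2 fold change 0.55, SE 0.13, edgeR adjusted p = 0.0153). *Ampd3*, an AMP deaminase that turns AMP into IMP, was at 18.4, 25.1 and 19.1 CPM in WT and 30.3, 25.6 and 28.35 CPM in C75S. WT replicate 2 lay just under the lowest C75S library, and the log2 fold change was 0.43 (SE 0.10, edgeR adjusted p = 0.0261). Each of these 3 calls was lost in 3 or 4 of the 6 fits without a library: *Nt5c2* without C75S replicate 1, WT replicate 2 or WT replicate 3 (adjusted p up to 0.0806), *Nt5c3b* without C75S replicate 2, WT replicate 1 or WT replicate 3 (up to 0.131), and *Ampd3* when either C75S replicate 1 or 3, or either WT replicate 1 or 3, was omitted (up to 0.132). The adenylate kinase *Ak3*, among the most abundant of this list, was at a log2 difference of -0.037 (SE 0.05).

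The 13 genes of de novo purine synthesis could all be tested, and 1 rose. *Impdh1*, which commits IMP to guanine nucleotides, was at 20.04, 19.0 and 22.95 CPM in WT and 26.4, 24.5 and 26.7 CPM in C75S, with no overlap (log2 fold change 0.32, SE 0.09, edgeR adjusted p = 0.0440). It passed narrowly: DESeq2 gave an adjusted p of 0.0580 and limma-voom 0.0508, and the call was lost without any 1 of the libraries other than WT replicate 3 (up to 0.222). *Paics* and *Prps1*, the most abundant of this list, were at -0.066 (SE 0.05) and 0.023 (SE 0.07) on the log2 scale.

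The remaining 4 lists held 0 called genes. At an unadjusted p under 0.05 edgeR's test gave 0 of 8 purinergic receptors, 1 of 6 genes of nucleoside transport and nucleotide release, 2 of 7 genes of purine salvage and breakdown and 1 of 5 lysophosphatidic acid receptors and phosphatases, against 13.4% of all tested genes. DESeq2 and limma-voom called 4 genes each over all 7 lists. Among receptors, the ATP-gated channel *P2rx4* was at 17.8 ± 0.687 in C75S and 16.6 ± 0.314 in WT per exon length (log2 difference 0.10, 95% interval -0.0035 to 0.20). *P2rx5* was at -0.16 on the log2 scale (SE 0.11). Of the other adenosine receptors, *Adora2b* was at 0.922 reads per kilobase of exon per 1000000 counts, against 4.22 for *Adora1*. *Adora2a* averaged 0.071 CPM in C75S and 0.146 CPM in WT, too little to test, and *Adora3* had 0 counts in all 6 libraries.

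*Ank*, which carries pyrophosphate out of the cell, was at -0.20 on the log2 scale (SE 0.09), and the transporter *Abcc6*, needed for ATP release from hepatocytes, at 0.15 (SE 0.09). The salvage enzyme *Hprt* was at -0.0049 (SE 0.05) and urate oxidase *Uox* at -0.24 (SE 0.13). The lipid phosphatases *Plpp2* and *Plpp3*, which degrade the product of autotaxin, were at 0.12 (SE 0.06) and -0.032 (SE 0.06). None of these 6 genes passed the adjusted threshold.

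**Figure D4:**
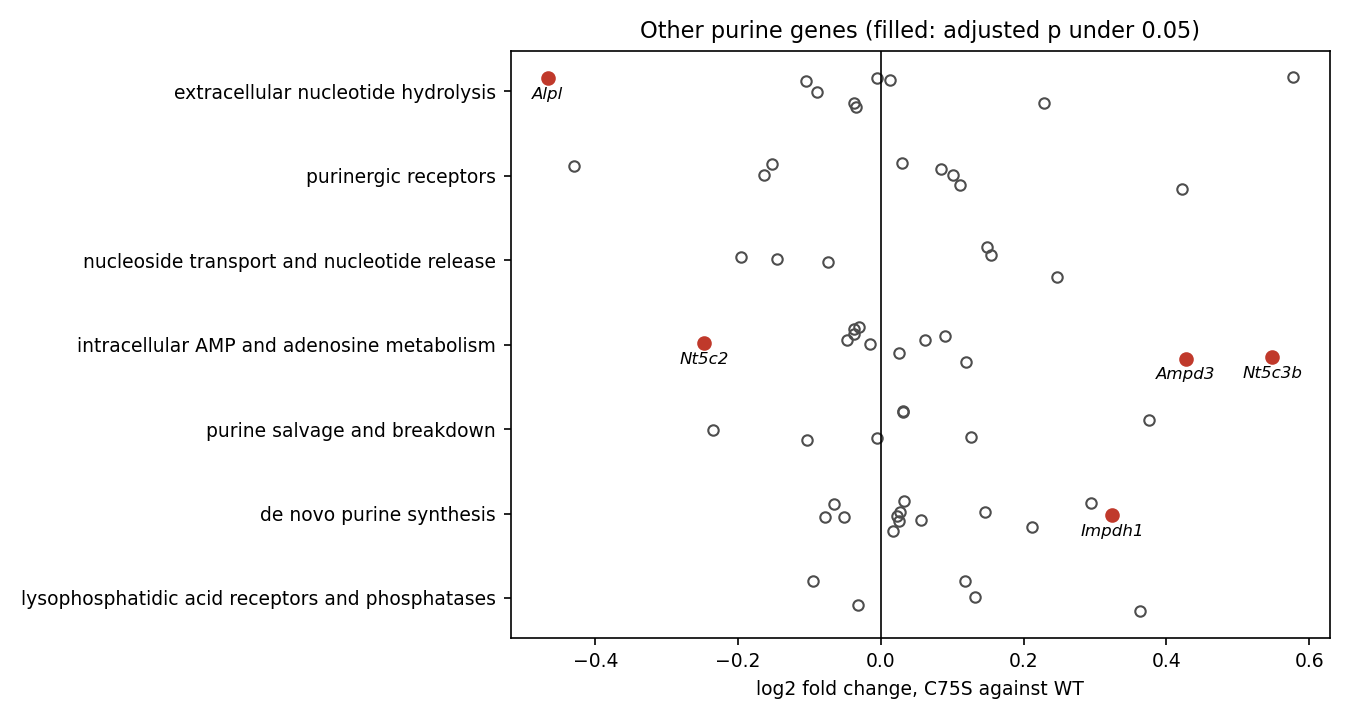
Log2 fold change of C75S against WT for the 60 testable genes of 7 purine lists (rows, with vertical jitter), filled red where the adjusted p was under 0.05. *Alpl* at -0.47 and *Nt5c2* at -0.25 lie left of 0, and *Impdh1*, *Ampd3* and *Nt5c3b* right of it.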

How the data were processed

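The deposited values are raw counts of reads per Ensembl gene, one table per library, in the layout that STAR writes. The submitters' processing notes name Trim Galore 0.6.6, STAR 2.7.9a, edgeR 3.36.0 and the builds mm10 and GRCm38. The annotation release is not given in the sources used here. Column 4 was used, the reverse strand, whose total was 33.3 times that of the forward strand. The summary rows were dropped. Multimapping reads were not counted to genes. Of 55487 gene rows, 55227 are in GENCODE M21, which gave positions and exon lengths.

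Genes passing edgeR's filterByExpr (minimum count 10, minimum total 15) were scaled by TMM. The test was edgeR's (version 4.0.16, under R 4.3.3), a two-sided quasi-likelihood F-test with robust dispersion and genotype as the single term, adjusted by Benjamini-Hochberg at 0.05. Standard errors are the log2 fold change divided by the square root of F. DESeq2 1.42.0, limma 3.58.1 voom, other scalings and filters, unstranded counts, a replicate block and leaving out each library were alternatives. Named were all members, every called gene of 7 purine lists and the 2 most abundant per list, of which 1 is not reported here. Markers of 7 cell types were summed. Copies were sought with BLAST 2.17.0 (at least 90% identity over 200 bases). The members and lists were chosen with earlier results of these data known. The procedure was tested on simulated data. Replicates differed by more than counting noise (chi-square per degree of freedom of 4.04 to 8.98).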

Additional observations from a re-analysis of the deposited data

How the results depend on the processing

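Over all genes, 396 were called. The count stayed within 1.5 times that value with all 6 libraries, and without 1 library it ranged from 201 to 355 (201 without WT replicate 2, 246 without WT replicate 3, 253 without C75S replicate 1). With no filter on low counts 573 genes were called, 290 higher and 283 lower, against 222 and 174. For the other purine genes the count of 5 was between 4 and 6 with all libraries and between 1 and 4 without 1 library. The replicate block raised the count over all genes to 480 and that of the other purine genes to 6 and changed no call among the members. Deviations of same-numbered libraries correlated at 0.017, -0.040 and 0.025, so no strong shared deviation was seen. These values cannot show whether the samples were prepared in pairs. Of the members, 4 that were not called changed sign without a library: *Entpd2* (log2 fold changes from -0.42 to 0.0013, the latter without WT replicate 1), *Enpp1* (-0.14 to 0.0073, with 0.0073 without WT replicate 2 and 0.0015 without WT replicate 3), *Adk* (-0.12 to 0.00017, without C75S replicate 1) and *Slc29a1* (-0.020, without WT replicate 1, to 0.085). The cause was not tested. Scaling moved the median of all genes to at most 0.0090 on the log2 scale. Counting error was highest for *Ada* and *Entpd2*, the members with the fewest reads (9 to 123 per library).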

Other observations

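*Entpd4*, which encodes an NTPDase of the Golgi and lysosome, had 0 counts in all 6 libraries, as did its neighbour in sequence *Entpd4b*. Their longest GENCODE M21 transcripts are identical over all 3589 bases, and reads that map to more than 1 place were not counted to genes, so the zero cannot be read as absence of the transcript. *Entpd4* is 1 of the 13 purine genes without any read. Among the 10 members no comparable copy was found: *Adk* shares 210 bases at 91.0% identity with *Gm43813* and 200 bases at 91.5% with *Mga*, and the match of *Adora1* to *Mybph* (844 bases at 99.9%) is their overlap on opposite strands.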
